A study of Mus musculus with 6 samples.

Results

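The genes described here are the secreted Wnt ligands, their receptors, the proteins that block or amplify the signal, and the nuclear factors and feedback targets at its end. They were chosen by symbol alone, as every gene named Wnt, Fzd, Sfrp1 to Sfrp5, Dkk1 to Dkk4 or Rspo1 to Rspo4, together with Lrp5, Lrp6, Lgr4, Lgr5, Axin2, Lef1, Tcf7, Tcf7l1, Tcf7l2 and Notum, which gave 51 of the 51733 gene symbols in the files. No expression value entered that choice. The 51 members comprised 19 ligands, 10 Frizzled receptors, 4 co-receptors, 4 R-spondins, 9 secreted inhibitors, and 5 nuclear factors and targets. The secreted inhibitors are the Sfrp and Dkk genes with Notum, a role given by family name, which need not hold for each of them.

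RNA was sequenced from neural progenitor cells (NPCs) of mouse neural tubes at embryonic day 13.5, sorted for Sox2, a transcription factor that marks neural stem cells. The study asked how loss of Ybx1, a DNA- and RNA-binding protein, alters gene expression in these cells. The control group held 3 libraries labelled wildtype, from sibling embryos by the methods, and the Ybx1-KO group held 3 libraries labelled YBX1KO. The Ybx1-KO embryos carried the Ybx1tm1Ley allele on both chromosomes, a null allele present in every cell of the embryo, so that the loss was not limited to NPCs and most such embryos have an open brain (exencephaly). Cells of both groups were sorted through a Sox2-eGFP reporter, which the methods give as the Sox2tm1Hoch allele, and the strain label was C57BL/6 for all 6 samples. Neural tube was taken as a whole, so each library mixed progenitors of several brain and spinal cord regions, and in such bulk RNA fewer cells of a type and less RNA per cell cannot be told apart. The titles of controls 1 and 2 carry one number in common, and those of Ybx1-KO 1 and 2 another. Nothing says what these stand for, nor that libraries came from separate embryos, so the p-values measure only the spread between these libraries.

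Counts on genes totalled 20841990 to 23883542 per control library and 4743279 to 13321952 per Ybx1-KO library. Ybx1 itself stood at 238, 531 and 306 CPM (counts scaled to a common library size by TMM) in controls 1 to 3 and at 126, 55.4 and 9.66 CPM in Ybx1-KO 1 to 3. All 3 Ybx1-KO values lay below the controls, by -2.49 ± 0.68 (log2 fold change ± SE), although edgeR's adjusted p was 0.302 and counts on the gene remained in each Ybx1-KO library. Sox2 was present in all 6 libraries at 17.5 to 50.6 CPM, and so were neuron genes, whose 9 markers summed to 1738 to 5114 CPM. One library stood apart: Ybx1-KO 3 had the fewest counts, 7.23% of its read pairs on genes against 18 to 24.7% elsewhere, and 4520 CPM on 1686 olfactory and vomeronasal receptor genes, which serve sensory neurons of the nose, against 13.1 to 90 CPM in the other 5. Values that lean on Ybx1-KO 3 are therefore given with and without it.

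Wnt proteins are lipid-modified signals that act over short distances. A ligand bridges a Frizzled receptor and the co-receptor Lrp5 or Lrp6, the complex that degrades β-catenin is switched off, and β-catenin enters the nucleus and activates genes together with the Tcf and Lef factors. R-spondins, acting through Lgr4 and Lgr5, keep Frizzled receptors at the cell surface, whereas Sfrp proteins, Dkk1 and the enzyme Notum block the signal outside the cell. In the embryonic neural tube Wnt signals from the dorsal midline, the cortical hem and the midbrain-hindbrain boundary pattern the tissue and keep progenitors dividing, with Wnt1 and Wnt3a as the classical midline ligands and Axin2 and Lef1 as genes that the pathway itself induces.

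Of the 51 members, 33 had a mean level above 1 FPKM (fragments per kilobase of exon, scaled by each library's gene total) in at least one group and were tested. Of these, 26 passed that limit in both groups, 7 passed only through the Ybx1-KO group, none passed only through the controls, and the remaining 18 passed in neither. No member was called in Ybx1-KO against control NPCs by the quasi-likelihood test of edgeR, with a call defined as an adjusted p below 0.05 together with more than a 1.5-fold difference, and no gene was called among all 21325 tested (0% called), with the smallest adjusted p at 0.349 for the members and 0.167 for all genes. Accordingly none of the differences below passed the test, and they are given as values. At an unadjusted edgeR p below 0.05, 3 members were higher in Ybx1-KO NPCs (Wnt1, Wnt8b and Rspo1), beside 6.96% of all tested genes. One was lower at that limit (Fzd1), beside 4.26% of all tested genes. All 3 Ybx1-KO libraries lay above all 3 controls for 4 members (Wnt1, Wnt8b, Wnt9a and Tcf7) against 4.99% of all tested genes, and below them for 1 member (Fzd1) against 8.15%. For 3 of those 4 higher members (Wnt1, Wnt8b and Wnt9a) the filter was passed only through the Ybx1-KO group, so a difference was built into their selection.

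Across the 33 tested members 24 fold changes were positive and 9 negative, and their median was 0.28 on the log2 scale. Across all tested genes 13069 were positive and 8256 negative, with a median of 0.31. Among the 26 members that passed the filter in both groups, 17 were positive, 9 were negative and the median was 0.14. All 7 that passed only through Ybx1-KO NPCs were positive, as the filter makes likely. When Ybx1-KO 3 was left out, the median over all genes moved to -0.07 and that of the members to 0.31. Without Ybx1-KO 1 these medians were 0.23 and 0.73, so that the distance between them depended on the libraries used.

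**Figure D1:**
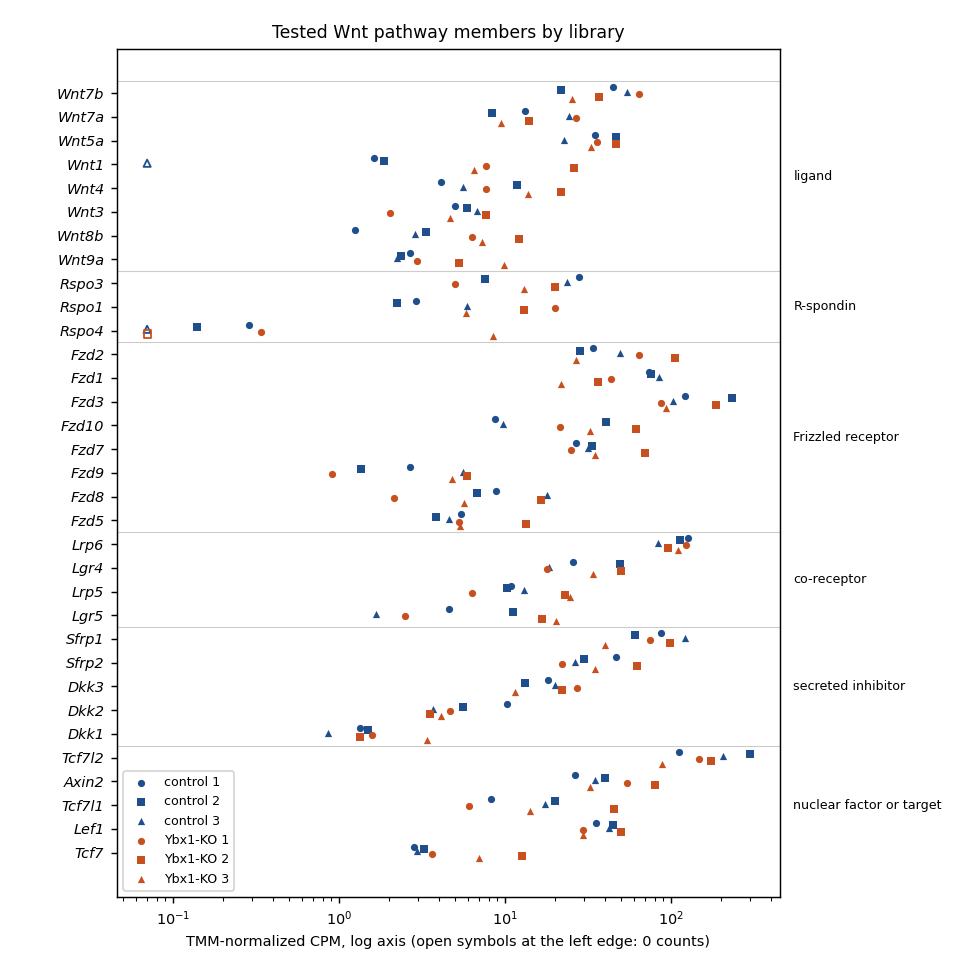
TMM-normalized CPM (log axis) of the 33 tested members, grouped by role, with 1 symbol per library, blue for controls and orange for Ybx1-KO, and open symbols at the left edge for 0 counts. Wnt1 and Wnt8b sit to the right of all controls in the 3 Ybx1-KO libraries and Fzd1 to the left, while most other members overlap.

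The stretch upstream of the start is printed here for the 4 members with an unadjusted p below 0.05, because these are the genes on which the results turn. The sequences are the 120 bases before the RefSeq start on GRCm38.p6, on the gene's own strand, and capitals mark the 5 letters ATTGG, the inverted CCAAT box for which Y-box proteins such as Ybx1 were named. They lie at chr15:98789737-98789856 (plus strand) for Wnt1, chr19:44493352-44493471 (plus) for Wnt8b, chr4:124986310-124986429 (plus) for Rspo1 and chr5:4758217-4758336 (minus) for Fzd1.
Wnt1: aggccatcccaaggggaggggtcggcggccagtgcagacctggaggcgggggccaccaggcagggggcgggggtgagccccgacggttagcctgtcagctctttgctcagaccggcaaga
Wnt8b: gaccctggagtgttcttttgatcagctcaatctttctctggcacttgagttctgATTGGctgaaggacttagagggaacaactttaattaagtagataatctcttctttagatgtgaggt
Rspo1: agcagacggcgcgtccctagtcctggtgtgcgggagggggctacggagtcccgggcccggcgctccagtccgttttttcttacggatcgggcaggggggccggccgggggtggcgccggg
Fzd1: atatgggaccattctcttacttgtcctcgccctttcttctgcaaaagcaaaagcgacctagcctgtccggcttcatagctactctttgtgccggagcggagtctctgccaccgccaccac

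One of the 4 printed stretches, that of Wnt8b, holds the box, with its first base 66 bases before the start. Over the wider window of 250 bases before to 50 after the start, ATTGG or its reverse complement CCAAT was found for 13 of the 33 members with a RefSeq promoter (39.4%) and for 41.1% of 27025 genes, a motif chosen after the sequences were seen. The core of the Tcf and Lef binding site, CTTTGAT or its reverse complement ATCAAAG, was in the window of 2 of the 33 members (6.06%) and of 4.29% of all genes. Those 2 were Wnt5b, 71 bases before the start, and Wnt11, 51 bases before it, both of which fell under the filter on low levels.

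Among the ligands, Wnt1 had the smallest p. Wnt1 (chr15:98789857-98793837, GRCm38, plus strand) marks the midbrain-hindbrain boundary and the dorsal midline, and it stood at 1.63, 1.87 and 0 CPM in controls 1 to 3 and at 7.71, 26.2 and 6.54 CPM in Ybx1-KO 1 to 3. Behind these values were 34, 40 and 0 counts in the controls and 68, 252 and 46 counts in the less deeply sequenced Ybx1-KO libraries. All Ybx1-KO libraries were higher than every control, and Ybx1-KO 2 was far above the other two. The log2 fold change was 3.52 ± 1.01 (edgeR adjusted p = 0.349), and a two-sided exact permutation test gave p = 0.1, the smallest that 3 against 3 libraries allow. Without Ybx1-KO 3 it was 3.82 (edgeR adjusted p = 0.0772), and without Ybx1-KO 1 it was 3.80 (edgeR adjusted p = 0.0438), so that Wnt1 was called only when that library was left out or when no filter was applied to low genes.

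Wnt8b (chr19:44493472-44514273, plus strand), a ligand of the cortical hem and other dorsal midline tissue, also kept the groups apart, at a smaller size. In controls 1 to 3 its level was 1.25, 3.37 and 2.90 CPM, and in Ybx1-KO 1 to 3 it was 6.35, 12.2 and 7.25 CPM, with no overlap. The log2 fold change was 1.77 ± 0.72 (edgeR adjusted p = 0.443), and it was 1.86 without Ybx1-KO 3.

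Wnt9a, the third ligand without overlap, rested mainly on a single library. It stood at 2.69, 2.39 and 2.24 CPM in the controls and at 2.95, 5.30 and 9.95 CPM in Ybx1-KO 1 to 3, so that Ybx1-KO 1 was barely above control 1. Its log2 fold change of 1.31 ± 0.84 (edgeR adjusted p = 0.488) became 0.73 without Ybx1-KO 3.

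The ligands with the most transcript did not separate the groups. Wnt7b and Wnt7a, made by progenitors of the ventricular zone, and Wnt5a, a ligand best known for signalling independent of β-catenin, together supplied 71.9, 57.8 and 74% of the summed ligand FPKM in the controls and 70.3, 40.4 and 35.8% in Ybx1-KO 1 to 3. Wnt7b was at 45.1, 21.8 and 54.2 CPM in the controls and 64.6, 36.9 and 25.3 CPM in Ybx1-KO 1 to 3. Wnt7a was at 13.2, 8.33 and 24.4 CPM against 27, 14 and 9.52 CPM. For both genes the libraries of the 2 groups were interleaved, with the highest value in Ybx1-KO 1 and the lowest in control 2. Wnt5a was steadier than both, at 34.9, 47 and 22.9 CPM in the controls and 35.9, 46.8 and 33.3 CPM in Ybx1-KO. Their log2 fold changes were 0.07 for Wnt7b, 0.14 for Wnt7a and 0.15 for Wnt5a, with standard errors between 0.39 and 0.51, and each changed sign when one library or another was left out.

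The 2 remaining tested ligands had fold changes of opposite sign, and both overlapped between the groups. Wnt4, a ligand of the dorsal midline and floor plate, was at 4.13, 11.8 and 5.64 CPM in the controls and 7.71, 21.9 and 13.8 CPM in Ybx1-KO (log2 fold change 1.01 ± 0.56, edgeR adjusted p = 0.455), with control 2 inside the Ybx1-KO range. Wnt3 was at 5.04, 5.94 and 6.81 CPM against 2.04, 7.69 and 4.69 CPM (-0.30 ± 0.72).

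Summed over all 19 ligands, transcript per length was 24.8, 20.2 and 26.8 FPKM in the controls and 38.9, 32.1 and 51.5 FPKM in Ybx1-KO 1 to 3. Every Ybx1-KO library was above every control in that sum, as it was with TMM-scaled library sizes, where the sums were 22.6 to 29.3 and 34.7 to 44.4. The sum counts 11 untested ligands. In Ybx1-KO 3 none of these was above the 95th percentile of the olfactory and vomeronasal receptor genes, 3.305 FPKM. In Ybx1-KO 1, Wnt7b and Wnt7a, which overlapped between the groups, supplied 13.72 and 8.845 FPKM of the sum. Wnt1 supplied 2.76, 3.48 and 0% of the sum in the controls and 8.66, 24.8 and 7.92% in the Ybx1-KO libraries, a higher share in each Ybx1-KO library than in any control. With Wnt1 taken out, Ybx1-KO 2 fell to 24.1 FPKM, inside the control range of 19.5 to 26.8, but on the TMM-scaled sizes the sums still did not overlap (21.8 to 29.3 against 32 to 34.2). Without Wnt1, Wnt7a, Wnt7b and Wnt5a the remaining 15 ligands summed to 6.30, 7.83 and 6.96 FPKM in the controls and to 8.21, 11.1 and 29 FPKM in Ybx1-KO 1 to 3. On the TMM-scaled sizes these sums overlapped, at 6.301, 8.75 and 7.628 in the controls against 7.895, 15.41 and 19.54. Ybx1-KO 1 was then below control 2.

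Of the ligands, 11 fell under the filter, and 2 of them were higher in all 3 Ybx1-KO libraries than in any control. So were 0.915% of the 18369 genes under the filter that had an exon length and at least 1 count. That set reaches down to genes with too few counts to separate the groups, so its share is not a like comparison. Wnt3a, the partner of Wnt1 at the dorsal midline, had 2, 2 and 3 counts in the controls and 5, 10 and 16 counts in Ybx1-KO 1 to 3, and since each control was at or under a floor of 3 counts, it was barely detectable there. Wnt9b had 10, 10 and 3 counts (0.48, 0.47 and 0.15 CPM) in the controls and 32, 24 and 17 counts (3.63, 2.49 and 2.42 CPM) in the shallower Ybx1-KO libraries. Both were low in every control and higher in each Ybx1-KO library, without a test. The remaining 9 (Wnt2, Wnt2b, Wnt5b, Wnt6, Wnt8a, Wnt10a, Wnt10b, Wnt11 and Wnt16) overlapped between the groups. Their highest value in the other 5 libraries was 1.11 FPKM, for Wnt5b in Ybx1-KO 1, while in Ybx1-KO 3 they stood between 0.87 and 1.89 FPKM.

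How far such low values can be read in Ybx1-KO 3 is shown by the olfactory and vomeronasal receptor genes, which had a pooled level of 0.798 FPKM and a 95th percentile of 3.31 FPKM in that library. In the other 5 libraries the pooled level was at most 0.0159 FPKM and the 95th percentile at most 0.104 FPKM. In Ybx1-KO 3, 25 of the 51 members stood above that percentile, against 39 to 46 members in each other library, and none of the 18 untested members did. Fewer than 3 counts in both Ybx1-KO 1 and Ybx1-KO 2, beside more than 3 in Ybx1-KO 3, were found for 7 untested members (Dkk4, Sfrp5, Wnt10a, Wnt10b, Wnt11, Wnt16 and Wnt2). Wnt1, at 4.08 FPKM, and Wnt9a, at 4.43 FPKM, were above the percentile there, whereas Wnt8b (3.09 FPKM), Wnt3a (1.22 FPKM) and Wnt9b (0.793 FPKM) were not. The share of these reads in the members' values was not tested.

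**Figure D2:**
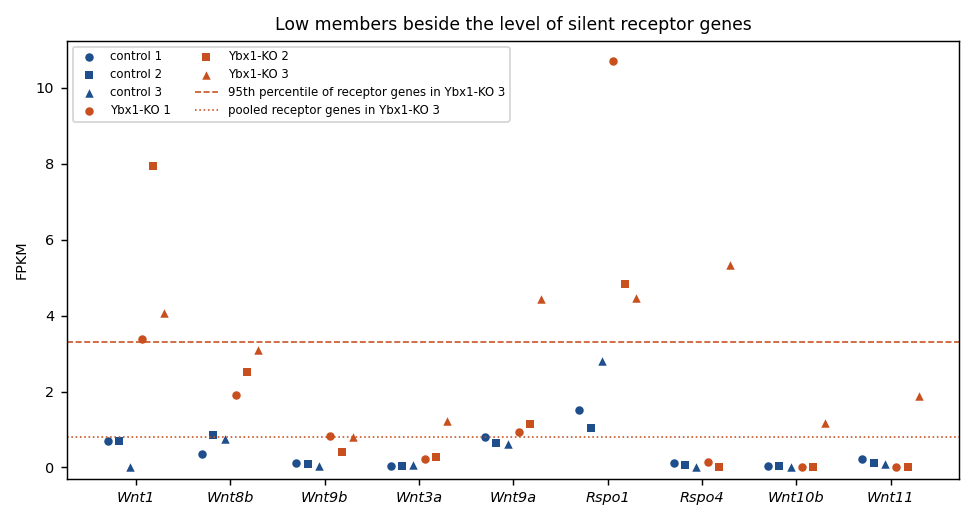
FPKM of 9 low members in each library (blue, control; orange, Ybx1-KO; symbols as in the legend), with horizontal lines at the pooled level (0.798 FPKM) and the 95th percentile (3.31 FPKM) of olfactory and vomeronasal receptor genes in Ybx1-KO 3. Wnt1 and Rspo1 exceed the upper line in Ybx1-KO 1 and 2 too, while Rspo4, Wnt10b and Wnt11 are raised in Ybx1-KO 3 alone.

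Several ligand genes lie beside each other in the genome, and the neighbour of Wnt1 did not share its pattern. Wnt10b lies 11.7 kb from Wnt1 on chromosome 15 and points the other way. It had 3, 2 and 0 counts in the controls and 0, 0 and 19 in Ybx1-KO 1 to 3, and so was not seen where Wnt1 was highest. Wnt9b and Wnt3 lie 24.3 kb apart and Wnt3a and Wnt9a 16.2 kb apart on chromosome 11, again in divergent pairs. In the first pair only Wnt9b kept the groups apart, and in the second both genes did.

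R-spondins amplify the Wnt signal, and Rspo1 was the member of this family with the smallest p. Rspo1 (chr4:124986430-125009099, plus strand) was at 2.93, 2.25 and 5.94 CPM in the controls and at 20, 13 and 5.83 CPM in Ybx1-KO 1 to 3. In CPM, Ybx1-KO 1 and 2 were above every control, and Ybx1-KO 3 lay just under control 3, so the groups overlapped. Per length, with the total on genes as the divisor, Rspo1 was at 1.51, 1.04 and 2.80 FPKM against 10.7, 4.84 and 4.46 FPKM. These values did not overlap, so that the overlap depended on the scaling. The log2 fold change was 1.80 ± 0.63 (edgeR adjusted p = 0.413) and was 2.13 without Ybx1-KO 3 (edgeR adjusted p = 0.152).

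Rspo3, the R-spondin with the most transcript in the controls, was at 27.9, 7.63 and 23.9 CPM there and at 4.99, 20 and 13.1 CPM in Ybx1-KO 1 to 3. Its values were spread widely within both groups (log2 fold change -0.64 ± 0.55, edgeR adjusted p = 0.588). Rspo4 had the largest fitted fold change of all members, 4.28, from 6, 3 and 0 counts in the controls and 3, 0 and 60 in Ybx1-KO 1 to 3, and this dropped to 0.21 without Ybx1-KO 3. Rspo2 was under the filter in both groups, at 0.344 to 1.03 FPKM.

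Frizzled proteins are the Wnt receptors, and Fzd1 was the one tested member lower in every Ybx1-KO library. Fzd1 (chr5:4753839-4758035, minus strand) stood at 73.6, 76.5 and 84.5 CPM in the controls and at 43.7, 36.4 and 21.9 CPM in Ybx1-KO 1 to 3. The controls differed little from each other (mean 78.2 ± 5.66 CPM, SD, n = 3), and each Ybx1-KO library was well below them (34 ± 11.1 CPM, SD, n = 3). The log2 fold change was -1.20 ± 0.38 (edgeR adjusted p = 0.392) and the exact permutation p was 0.1. It stayed between -1.42 and -0.95 over all the settings tried, and was -0.99 without Ybx1-KO 3. With DESeq2 the adjusted p was 0.0513.

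Fzd2 and Fzd10 were on the other side. Fzd2, which had the highest mean FPKM of the receptors over all 6 libraries, was at 34.1, 28.4 and 49.4 CPM in the controls and at 64.4, 106 and 26.9 CPM in Ybx1-KO 1 to 3. The groups overlapped through Ybx1-KO 3, the lowest of all 6 in CPM. Per length Ybx1-KO 3 was at 10.9 FPKM, inside the control range of 6.94 to 12.3 FPKM. The log2 fold change of Fzd2 was 0.82 ± 0.46, and without Ybx1-KO 3 it was 1.16 (edgeR adjusted p = 0.248). Fzd10, a receptor of the dorsal neural tube, was at 8.68, 40.5 and 9.81 CPM in the controls and at 21.5, 61.6 and 32.5 CPM in Ybx1-KO. Control 2 lay inside the Ybx1-KO range and the other 2 controls below it, so that the log2 fold change of 0.97 ± 0.56 became 2.06 without control 2 (edgeR adjusted p = 0.129).

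The other 5 tested receptors overlapped between the groups. Fzd3, which has a part in axon guidance, ranged from 103 to 233 CPM in the controls and from 87.7 to 189 CPM in Ybx1-KO, and Fzd7 from 26.8 to 33.7 CPM and from 25.1 to 70.4 CPM. Fzd5, Fzd8 and Fzd9 were all under 20 CPM in every library. Fzd4 and Fzd6 were under the filter in both groups. Summed over the 10 receptors, transcript was 49.8 to 60.1 FPKM in the controls and 50.7 to 68.6 FPKM in Ybx1-KO, so the receptor pool overlapped where the ligand pool did not. Fzd1 had the highest FPKM of the 10 in each control, just above Fzd3 in control 2, and in no Ybx1-KO library, where Fzd2 led in Ybx1-KO 1 and 2 and Fzd10 in Ybx1-KO 3.

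None of the 4 co-receptors separated the groups. Lrp6, the main co-receptor of the β-catenin branch, was at 127, 114 and 84.3 CPM in the controls and 124, 95.8 and 110 CPM in Ybx1-KO (log2 fold change 0.02 ± 0.38). Lgr4, an R-spondin receptor, was at 26, 49.7 and 18.5 CPM against 17.9, 50.4 and 34 CPM (0.12 ± 0.46). Lrp5 (0.65 ± 0.50) and Lgr5 (1.18 ± 0.74) had larger values with no separation of the groups, and both were smaller without Ybx1-KO 3 (0.33 and 0.71).

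**Figure D3:**
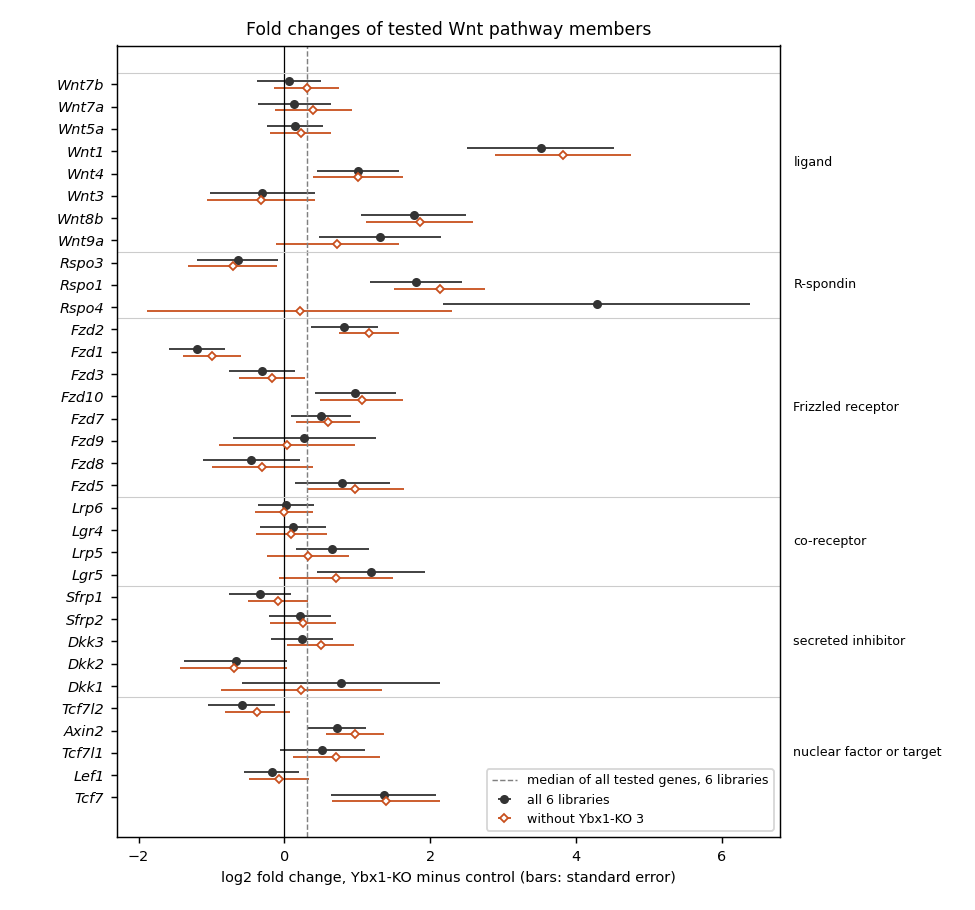
Log2 fold change of Ybx1-KO over control with its standard error for the 33 tested members, from all 6 libraries (filled) and without Ybx1-KO 3 (open), with a dashed line at 0.31, the median of all tested genes with 6 libraries. Wnt1, Rspo1, Wnt8b and Fzd1 keep their side of 0 in both fits, and Rspo4 moves from 4.28 to 0.21.

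Secreted inhibitors gave no member at an unadjusted p below 0.05 among the 5 tested. Sfrp1 and Sfrp2, soluble decoys that bind Wnt proteins, were the most abundant of the group per length. Sfrp1 was at 87.9, 60.7 and 122 CPM in the controls and 75, 98.5 and 40.1 CPM in Ybx1-KO (-0.34 ± 0.43), and Sfrp2 at 46.8, 30.2 and 26.6 CPM against 22.1, 62.6 and 35.1 CPM (0.21 ± 0.43). Both overlapped. Dkk1, which blocks Lrp5 and Lrp6 and is itself a target of the pathway, was at 1.34, 1.498 and 0.86 CPM in the controls and 1.59, 1.35 and 3.41 CPM in Ybx1-KO, and its fold change of 0.77 became 0.23 without Ybx1-KO 3. Dkk2 and Dkk3 had log2 fold changes of -0.67 and 0.24, with standard errors of 0.71 and 0.43.

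Of the 4 inhibitors under the filter, Sfrp4 was lower in every Ybx1-KO library, as were 1.68% of all such genes. It had 76, 38 and 45 counts (3.65, 1.78 and 2.29 CPM) in the controls and 0, 8 and 6 counts (0, 0.83 and 0.85 CPM) in Ybx1-KO 1 to 3. Notum, an enzyme that strips the lipid from Wnt proteins and a feedback target, had 5, 4 and 0 counts against 0, 10 and 8 and was near the limit of detection in all libraries. Sfrp5 and Dkk4 overlapped. Over the 18 untested members, 2 were higher without overlap, 1 was lower and 15 overlapped, beside the shares given above for genes under the filter. Those shares include genes with too few counts to separate the groups.

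At the nuclear end of the pathway, the feedback target Axin2 was higher in 2 of the 3 Ybx1-KO libraries and did not pass the test. Axin2 (chr11:108920349-108950783, plus strand), a scaffold of the β-catenin destruction complex that the pathway induces, was at 26.7, 40.3 and 35.1 CPM in the controls and at 54.7, 80.4 and 32.5 CPM in Ybx1-KO 1 to 3. Ybx1-KO 1 and 2 were above every control and Ybx1-KO 3 was among them. The log2 fold change was 0.72 ± 0.40 (edgeR adjusted p = 0.455), and without Ybx1-KO 3 it was 0.96 (edgeR adjusted p = 0.338). Per length, where the total on genes is the divisor, Axin2 was at 4.85, 6.55 and 5.81 FPKM against 10.3, 10.6 and 8.77 FPKM, so that whether Ybx1-KO 3 overlapped the controls depended on the scaling.

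Lef1, another gene that the pathway induces, did not go with Axin2. It was at 35.3, 45.2 and 42.6 CPM in the controls and 29.5, 50 and 29.6 CPM in Ybx1-KO (-0.17 ± 0.37). Tcf7, a related factor, was at 2.83, 3.28 and 2.95 CPM against 3.63, 12.7 and 6.96 CPM, with no overlap and a log2 fold change of 1.36 ± 0.73 (edgeR adjusted p = 0.450). Tcf7 was tightly grouped in the controls and widely spread in Ybx1-KO.

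Tcf7l1, which mostly represses, and Tcf7l2 overlapped. Tcf7l1 was at 8.25, 20.1 and 17.5 CPM in the controls and 6.12, 45.4 and 14.2 CPM in Ybx1-KO (0.52 ± 0.59). Tcf7l2, the most abundant factor of the 5, was at 112, 300 and 206 CPM against 148, 174.7 and 88.7 CPM (-0.59 ± 0.46). Among the 33 tested members the highest library was most often Ybx1-KO 2, for 15 members, and the lowest most often Ybx1-KO 1, for 11.

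The rest of the pathway was followed in a list of 51 further genes, of which 47 were tested. None was called, and at an unadjusted edgeR p below 0.05 there were 2 higher and 1 lower, beside 6.96 and 4.26% of all tested genes. One was higher and 3 lower without overlap, beside 4.99 and 8.15%, and 21 fold changes were positive and 26 negative, with a median of -0.05. The median log2 fold change was -0.03 for secretion and co-receptors (9 of 10 tested), 0.08 for receptor turnover and extracellular inhibitors (8 of 11), -0.07 for the cytoplasm (13 of 13), -0.07 for the nucleus (9 of 9) and -0.02 for planar polarity (8 of 8).

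Pygo2 and Dvl2 were the genes of that list that were higher at an unadjusted p below 0.05. Pygo2, a nuclear partner of the β-catenin complex, was at 12.2, 17.3 and 18.4 CPM in the controls and 54.1, 32.5 and 23 CPM in Ybx1-KO, with no overlap (1.19 ± 0.42, edgeR adjusted p = 0.413). Dvl2, which relays the signal from Frizzled, was at 35, 29.8 and 45.3 CPM against 104, 58.6 and 41.1 CPM (0.89 ± 0.41, edgeR adjusted p = 0.444). The groups overlapped for Dvl2 in CPM, through Ybx1-KO 3 and control 3. Per length they did not, at 4.24 to 6.56 FPKM in the controls and 6.72 to 17.2 FPKM in Ybx1-KO.

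Lower at that p, or without overlap, were an inhibitor, β-catenin and 2 further genes. Sostdc1, a secreted inhibitor, was at 8.97, 2.06 and 16.8 CPM in the controls and 0.11, 4.05 and 1.71 CPM in Ybx1-KO (-2.23 ± 0.98, edgeR adjusted p = 0.444), with overlap. Ctnnb1, which encodes β-catenin, was at 850, 760 and 732 CPM against 629, 501 and 317 CPM (-0.69 ± 0.49, edgeR adjusted p = 0.511). In CPM, Ctnnb1, Pygo1 (-0.59) and Daam1 (-0.61) were below all controls in every Ybx1-KO library. Per length Daam1 overlapped, at 8.71 to 12.8 FPKM in the controls and 6.52 to 9.20 FPKM in Ybx1-KO. Apc, which promotes the breakdown of β-catenin, was at 427, 623 and 351 CPM in the controls and 205, 361 and 155 CPM in Ybx1-KO, with overlap (-0.96 ± 0.48, edgeR adjusted p = 0.450), and was named after its values were seen. Per length Apc did not overlap, at 19.85 to 34.6 FPKM in the controls and 13.2 to 16.2 FPKM in Ybx1-KO.

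Since many members mark regions of the neural tube, region markers were set beside them. The 6 forebrain markers summed to 353, 123 and 515 CPM in the controls and 273, 189 and 66.8 CPM in Ybx1-KO. The 6 midbrain and isthmus markers summed to 58.6, 270 and 65.9 CPM against 282, 274 and 131 CPM, and the 9 hindbrain and spinal cord markers to 46.3, 422 and 119 CPM against 550, 489 and 220 CPM. Control 2 thus resembled the Ybx1-KO libraries in its region markers, with little forebrain and much midbrain and hindbrain, and it also had over 2 times the level of both other controls for Fzd10, Lgr5 and Wnt4, while both other controls had over 2 times its level for Rspo3 and Wnt7b. These 5 tested members were picked because control 2 lay over 2 times above or below both other controls. That their levels moved with its region mix was therefore set by the choice. The other tested members did not pass that limit. The pattern rests on control 2 alone, and the share of all genes past that limit was not counted. Ybx1-KO 1 had the highest midbrain and hindbrain sums of the 6 libraries. Lgr5 was at 2.495 CPM there, against 11.14 CPM in control 2. Fzd10 (21.54 CPM) and Wnt4 (7.71 CPM) lay between control 2 and both other controls. Rspo3 was at 4.989 CPM, below every control, and Wnt7b at 64.63 CPM, above every control. The part of the region mix in the group values was not tested. In control 2 Wnt1 was at 1.87 CPM and Fzd1 at 76.5 CPM, values near those of control 1. The midbrain and isthmus sum of control 2 came mostly from Pax2 (107 CPM), Pax5 (62.9 CPM) and Gbx2 (47.1 CPM). En1, a transcription factor of the same midbrain-hindbrain territory as Wnt1, was at 5.04, 7.86 and 5.08 CPM in the controls and at 30.6, 12.7 and 4.12 CPM in Ybx1-KO 1 to 3. En2 was at 9.88, 13.2 and 7.67 CPM against 30.2, 7.58 and 7.96 CPM. Pax7 was at 25.1, 31.4 and 10.2 CPM against 29.25, 24.8 and 19.6 CPM. The part of the region mix in the Wnt1 and Fzd1 values was not tested either.

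The roof plate and cortical hem, the dorsal midline tissues that secrete Wnt and Bmp proteins, were read through 8 markers that are not members. Their sum was 35.7, 81.8 and 53.6 CPM in the controls and 153, 115 and 65.9 CPM in Ybx1-KO. Of the 8, 3 were higher without overlap, beside 4.99% of all tested genes. Lmx1a was at 4.67 to 9.88 CPM in the controls and at 64.8, 12.6 and 13.2 CPM in Ybx1-KO 1 to 3. Msx1 was at 2.78 to 4.35 CPM in the controls and 5.97 to 20.4 CPM in Ybx1-KO, and Msx2 at 1.68 to 6.51 and 10.4 to 19.1 CPM. None of the list was at 0 in all libraries. The other 5 overlapped: Lmx1b was at 8.35 to 41 CPM in the controls and 15.5 to 31.3 CPM in Ybx1-KO, Gdf7 at 0.096 to 1.26 and 0.34 to 10.8, Bmp4 at 3.98 to 6.30 and 1.13 to 4.83, Bmp6 at 2.01 to 2.21 and 1.70 to 4.36, and Bmp7 at 10.4 to 12.8 and 9.38 to 24.2 CPM. Control 2 was above Ybx1-KO 3 in the sum of the list, which Wnt1, Wnt3a and Wnt8b were not. The part of these tissues in the members' values was not tested.

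Other cells that the sort could hold were read in the same way. Choroid plexus markers (5 genes) summed to 726, 42.5 and 976 CPM in the controls and 51.2 to 62.2 CPM in Ybx1-KO. Mesenchyme and meninges markers (10 genes) summed to 1060, 193 and 272 CPM against 97.3 to 180 CPM. Of these 10, 2 were lower without overlap, beside 8.15% of all tested genes. Rspo3 had its lowest control value in control 2, the control with the least of both lists. Sfrp4, for which the groups did not overlap, was highest in control 1, the library with the most mesenchymal transcript. Erythroid markers ranged from 480 to 1170 CPM and from 164 to 953 CPM, endothelial markers from 25.1 to 52.5 CPM and from 18 to 66.2 CPM, neural crest markers from 191 to 490 CPM and from 212 to 545 CPM, and progenitor markers from 1387 to 1599 CPM and from 1078 to 1812 CPM, in controls and Ybx1-KO respectively. The part of any of these cells in the members' values was not tested.

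**Figure D4:**
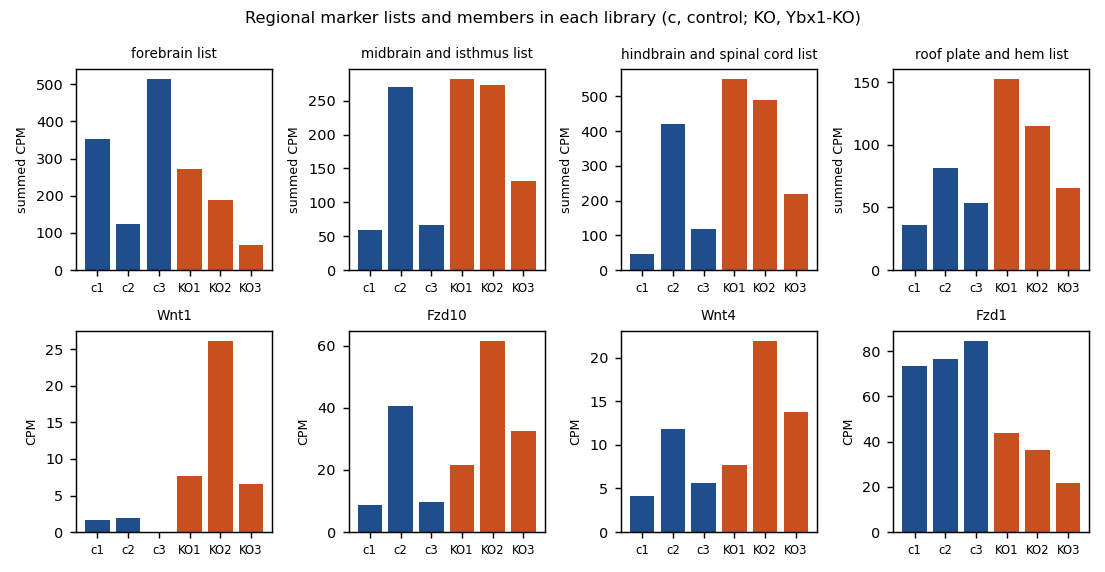
Bars give summed TMM-normalized CPM of 4 region marker lists (top) and CPM of 4 members (bottom) in each library, blue for controls (c) and orange for Ybx1-KO (KO), on axes that start at 0. Control 2 has high midbrain and hindbrain sums (270 and 422 CPM), and its Fzd10 and Wnt4 lie in the Ybx1-KO range, with Wnt1 at 1.87 CPM and Fzd1 at 76.5 CPM there.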

How the data were processed

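RNA-seq was from Sox2-sorted NPCs of 3 control and 3 Ybx1-KO samples, grouped by the genotype label. Per the labels, libraries were made with a stranded total RNA kit and read in pairs, and the sequencer model of each library is not given. The authors counted read pairs on genes with HTSeq 0.6.1p1 (submitters' processing notes, which also name CASAVA and the builds mm10 and GRCm38.p5) using a GENCODE annotation, and the deposited tables, 1 per library, hold these raw counts by gene symbol, unnormalized and unfiltered. The aligner and the strand setting of the counting are not given in the sources used here, so counts of overlapping or antisense genes are uncertain.

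Counts were normalized by TMM and tested with edgeR 4.0.16 (quasi-likelihood, Benjamini-Hochberg over all tested genes, no covariate) in R 4.3.3. CPM use the TMM-scaled library size, and overlap between the groups was judged on CPM unless FPKM are given. The TMM factor was 1.568 for Ybx1-KO 3 and 0.727 to 1.045 for the other libraries. Values after ± are standard errors unless marked SD. Genes were tested above a mean of 1 FPKM in either group, with union exon lengths and gene coordinates from GENCODE M21 (GRCm38). The annotation held 47624 of the 51733 symbols as written and 365 under an older name, and 3744 had no entry. Promoters are from RefSeq (GRCm38.p6) and matched 33 of 51 members. Permutation tests were exact and two-sided on log2(CPM + 0.5). Alternatives used DESeq2 1.42.0, limma 3.58.1, other scalings, other filters and the omission of each library. The test script was checked on simulated data. Figures used matplotlib 3.10.9.

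A floor of 3 counts equals 0.14 to 0.152 TMM-normalized CPM in the controls and 0.312 to 0.426 in Ybx1-KO. Read pairs carried no molecular identifiers, so floors cover counting error only.

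The members, the pathway and marker lists and the rule for named genes (members with an unadjusted p below 0.05 or no overlap, the 2 most abundant of each role, and textbook markers) were chosen with earlier results of these data known. Other members are named to account for the whole set. The ATTGG motif was chosen after the sequences were seen.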

Additional observations from a re-analysis of the deposited data

Results flagged for a closer look

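Olfactory and vomeronasal receptor genes, which lie outside the comparisons of the report, carried counts in one library. Their summed level was 4520 CPM in Ybx1-KO 3, against 23.4 to 90 CPM in the controls and 13.1 and 19.5 CPM in Ybx1-KO 2 and Ybx1-KO 1. The median receptor gene was at 0.511 FPKM in Ybx1-KO 3 and at 0 in each of the other 5 libraries. Ybx1-KO 3 also had 59.5% of its read pairs outside genes, against 30.6 to 46.8% elsewhere. The cause was not tested.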

How the results depend on the processing

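Depth limits the low members: Ybx1-KO libraries held 4743279 to 13321952 counts, and edgeR's common biological coefficient of variation was 0.8. The median of all genes moved by more than 0.1 (log2) with total counts only (+0.225), limma-voom (-0.161), filterByExpr (-0.229), no filter (-0.147), without Ybx1-KO 3 (-0.377) and in both added alternatives (-0.297 with Ybx1-KO 3 dropped before the filter, -0.166 with a mean FPKM above 1 over all 6 libraries). No paired analysis was possible because the groups share no replicate numbers in the labels. The cause of each change below was not tested.

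No member was called in the main fit, and 1 (Wnt1) was with no filter (log2 fold change 3.46, edgeR adjusted p 0.0027). Leaving out 1 library gave 0 to 1, with Wnt1 called without Ybx1-KO 1. Members at an unadjusted p below 0.05 (4) became 7 with total counts only and 7 with DESeq2, and 3 to 11 when 1 library was left out, 7 without control 2 and 11 without Ybx1-KO 1. Members without overlap (5) became 8 with total counts only, 8 with a mean CPM above 1 in either group (47 members tested), 10 with filterByExpr (41), 9 with no filter (51) and 10 when Ybx1-KO 3 was dropped before the filter (30, an alternative added after seeing the data), and 7 to 11 when 1 library was left out. The members' median (0.28) ranged from 0.16 to 0.73, the highest without Ybx1-KO 1. Other pathway genes at an unadjusted p below 0.05 (3) became 5 with DESeq2, 6 when Ybx1-KO 3 was dropped before the filter, and 0 (without control 1) to 8 (without Ybx1-KO 2) when 1 library was left out. Over all genes, DESeq2 called 214, no filter 177, and leaving out control 2, Ybx1-KO 1, Ybx1-KO 2 or Ybx1-KO 3 called 71, 107, 420 or 46.

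Of 313 results for 21 single members, 295 kept direction and side of the threshold, 2 (both Wnt1) passed it, none lost it and 16 changed sign. Log2 fold changes that changed sign were those of Lgr4 (no filter -0.0148, leaving out 1 library -0.28 to 0.62), Lrp6 (mean CPM filter -0.0227, no filter -0.10, leaving out 1 library -0.13 to 0.15), Wnt7b (no filter -0.00397, leaving out 1 library -0.38 to 0.34), and, on leaving out 1 library, Sfrp2 (-0.27 to 0.50), Tcf7l1 (-0.59 to 0.97), Wnt5a (-0.0812 to 0.421) and Wnt7a (-0.38 to 0.64). A mean FPKM above 1 over all 6 libraries, also added after seeing the data, tested 29 members and moved no count by over 1.5 times.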
